A study of Homo sapiens with 60 samples.

Results

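The oxidative phosphorylation genes of the cell nucleus were followed in HepG2, a human hepatocellular carcinoma line with many hepatocyte features, after 24 h with herbal water extracts. They were taken by symbol: the numbered NDUFA, NDUFB, NDUFC, NDUFS and NDUFV genes with NDUFAB1, the SDH subunits, UQCR genes and CYC1, the COX4 to COX8 subunits, and the ATP5F, ATP5M and ATP5P genes. This gave 86 protein-coding genes of the 60675 genes in the table. Of these, 81 had enough reads to be tested. Total counts ran from 16484546 to 34412234 per library.

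The groups were vehicle (dimethyl sulfoxide, at 0.1% by the sample labels but 2% by the text on the series), the single herbs Cinnamomi Cortex, Astragali Radix, Cnidii Rhizoma and Rehmanniae Radix Preparata, and 3 formulas, namely Palmul-tang, Samul-tang and Sagunja-tang. Unmodified HepG2 cells received every extract at 500, 100 and 20 µg/mL. There were 3 libraries per group, except for Palmul-tang with 1 library per dose. The labels do not say whether libraries came from separate cultures, so the p-values measure the spread between these libraries, which may be technical. The sample titles name a single batch, B, for every library, vehicle included. Within it, the sample codes give vehicle and Palmul-tang each a set of its own. Cinnamomi Cortex and Astragali Radix share a set, Cnidii Rhizoma and Rehmanniae Radix Preparata another, and Sagunja-tang and Samul-tang one more. A difference from vehicle and a difference between sets therefore cannot be told apart, while dose trends and the pairs of extracts within a set do not involve vehicle.

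The respiratory chain passes electrons from NADH through complex I, or from succinate through complex II, to coenzyme Q, complex III, cytochrome c and complex IV, which reduces oxygen. Complexes I, III and IV pump protons across the inner mitochondrial membrane, and complex V, the ATP synthase, uses the gradient to make ATP. A few core subunits are encoded by mitochondrial DNA, while the genes described here supply the rest from the nucleus. The factors NRF1, GABP (an ETS family factor) and YY1, with coactivators of the PGC-1 family, are the best known regulators of these nuclear genes.

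Promoter sequence is a feature that the choice by symbol did not use. RefSeq (GRCh38.p14) windows from 250 bases before to 50 bases after the listed start were found for 68 members, the first listed window per gene being used. Both strands were searched for GCATGCG (an NRF1 core), CCGGAAG (an ETS core), AAGATGG (a YY1 core) and CACGTG (an E-box). These words do not contain one another, but a site can hold an overlapping pair. The NRF1 core stood in 13 member windows (19.1%), against 5.1% of 15843 windows of coding genes. The ETS core stood in 20 (29.4%, against 14.2%), the YY1 core in 16 (23.5%, against 6.4%) and the E-box in 7 (10.3%, against 8.9%). At least 1 of the 4 words stood in 39 member windows (57.4%) and in 29.4% of coding windows. Over all 27305 windows of this length the shares were 4.1%, 10.7%, 6.1% and 7.4%. Such a match is a description of letters, not a bound site. The median GC content was 61.2% in member windows and 62.7% in coding windows. The windows below belong to the 4 called members with a match that differed most from vehicle at 500 µg/mL Cinnamomi Cortex. Each runs from 200 bases before to 20 bases after the start, 5′ to 3′ on the gene's strand, with the matched letters in capitals.
NDUFA13, chr19:19516025-19516244, plus strand, ETS core: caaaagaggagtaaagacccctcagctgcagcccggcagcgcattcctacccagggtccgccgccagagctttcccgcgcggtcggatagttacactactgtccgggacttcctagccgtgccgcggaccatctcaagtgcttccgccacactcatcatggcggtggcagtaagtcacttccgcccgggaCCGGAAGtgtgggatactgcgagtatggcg
NDUFA1, chrX:119871632-119871851, plus strand, ETS core on the opposite strand: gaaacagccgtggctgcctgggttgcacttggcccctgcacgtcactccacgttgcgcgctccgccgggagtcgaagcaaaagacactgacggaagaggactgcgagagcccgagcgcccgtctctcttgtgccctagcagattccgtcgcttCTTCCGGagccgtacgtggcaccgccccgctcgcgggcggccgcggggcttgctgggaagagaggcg
NDUFA8, chr9:122159760-122159979, minus strand, an overlapping pair of NRF1 cores, 1 on each strand: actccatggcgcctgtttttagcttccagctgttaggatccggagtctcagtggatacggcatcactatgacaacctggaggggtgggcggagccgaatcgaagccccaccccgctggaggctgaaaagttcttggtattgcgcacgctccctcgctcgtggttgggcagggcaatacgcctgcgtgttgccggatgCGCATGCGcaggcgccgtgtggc
ATP5MC1, chr17:48892587-48892806, plus strand, E-box: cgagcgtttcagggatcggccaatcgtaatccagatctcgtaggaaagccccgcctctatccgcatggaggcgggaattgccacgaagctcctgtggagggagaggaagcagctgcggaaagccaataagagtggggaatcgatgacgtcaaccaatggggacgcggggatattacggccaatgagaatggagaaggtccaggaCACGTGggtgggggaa

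NDUFA13, NDUFA1 and NDUFA8 are accessory subunits of complex I and were higher than vehicle at that dose, while ATP5MC1, which encodes a c subunit of the ATP synthase ring, was lower. The matches in NDUFA13, NDUFA1 and NDUFA8 began 10, 47 and 3 bases before the start, and that in ATP5MC1 after it. Of 31 members with a window that were higher at 500 µg/mL Cinnamomi Cortex, 14 held the ETS core, against 6 of the 34 other tested members with a window. For the NRF1 core these counts were 6 and 7, and for the YY1 core 7 and 9. No test was made of these counts.

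In vehicle the tested members spanned 4.14 to 566 CPM (a gene's counts relative to the library total, scaled by TMM, which is edgeR's correction for library composition), with a median of 65.8. Divided by transcript length, ATP5MF, a small membrane subunit of complex V, was highest at 547 CPM per kb, followed by ATP5F1B, the catalytic beta subunit, at 308 and COX6A1, a complex IV subunit, at 237. The lowest tested member was UQCRHL at 1.90 CPM per kb. The median over members by complex ran from 37.0 CPM per kb for the complex I core and 37.8 for its accessory subunits, over 42.0 for complex II, to 62.0 for complex IV, 63.9 for the complex V membrane part, 72.5 for the complex V head and stalks and 75.3 for complex III. These values per kb, and so the order of genes and complexes, depend on the transcript length taken for each gene. That length was 305 bases for ATP5MF, which has 2275 exon bases. For SDHC it was 13566 bases, of which 507 are coding. Whether the order holds with other lengths was not tested. The 5 members not tested had few or no reads over 60 libraries. COX6A2 and COX7B2 had 0 counts, COX6B2 53, COX7A1 61 and ATP5MGL 87. COX6A2 and COX7A1 are isoforms of heart and skeletal muscle, and COX6B2 and COX7B2 are known from testis. Their widely expressed counterparts COX6A1, COX6B1, COX7A2 and COX7B were all tested. Copies of members elsewhere in the genome, 106 pseudogenes of 24 members, took a median of 0.0062% of a member's reads, most for UQCRFS1 (3.02%). Expression varied little between groups: the highest group mean exceeded the lowest by a median factor of 1.36 (range 1.11 to 1.98). Of the 81 members, 44 had their highest group mean at 500 µg/mL Cinnamomi Cortex and 7 in vehicle.

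Cinnamomi Cortex, the bark of a cinnamon tree, had the most members called against vehicle among the 6 extracts tested at 500 µg/mL. With edgeR's quasi-likelihood test and Benjamini-Hochberg adjustment over 16167 genes, 41 members were higher, 4 lower and 36 not called at an adjusted p under 0.05. The background was large, since 62.7% of all tested genes were called (31.1% higher and 31.6% lower). Of the members 55.6% were called, below that background, with 50.6% higher and 4.94% lower. Treated and vehicle libraries did not overlap in 67.2% of all genes. The members' median log2 fold change was 0.19, beside -0.02 over all genes. This direction depends on scaling. Dividing by total counts alone moved the median of all genes to -0.30 and that of the members to -0.09, with 10 members higher and 29 lower. Of the 45 called members 14 changed sign, all 14 from higher to lower, among them NDUFS1, a core subunit of complex I (0.14), which was called lower (-0.14). Relative to the median of all genes, the members' median was 0.21 under both scalings, because a change of scaling shifts all genes nearly alike. The word "higher" below therefore means higher relative to the bulk of genes. In bulk libraries fewer cells of a type and less RNA per cell cannot be told apart. The 10 members higher under both scalings were UQCRHL, ATP5F1D, NDUFA13, COX7A2L, ATP5F1E, NDUFA8, NDUFB9, UQCRH, COX4I1 and UQCRC1. All 4 lower members, ATP5MC1, UQCRC2, NDUFB10 and NDUFA10, were lower under both. That was fixed in advance, as total counts alone moved the members down by nearly the same amount (ATP5MC1 from -0.61 to -0.89, NDUFA10 from -0.17 to -0.45).

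**Figure D1:**
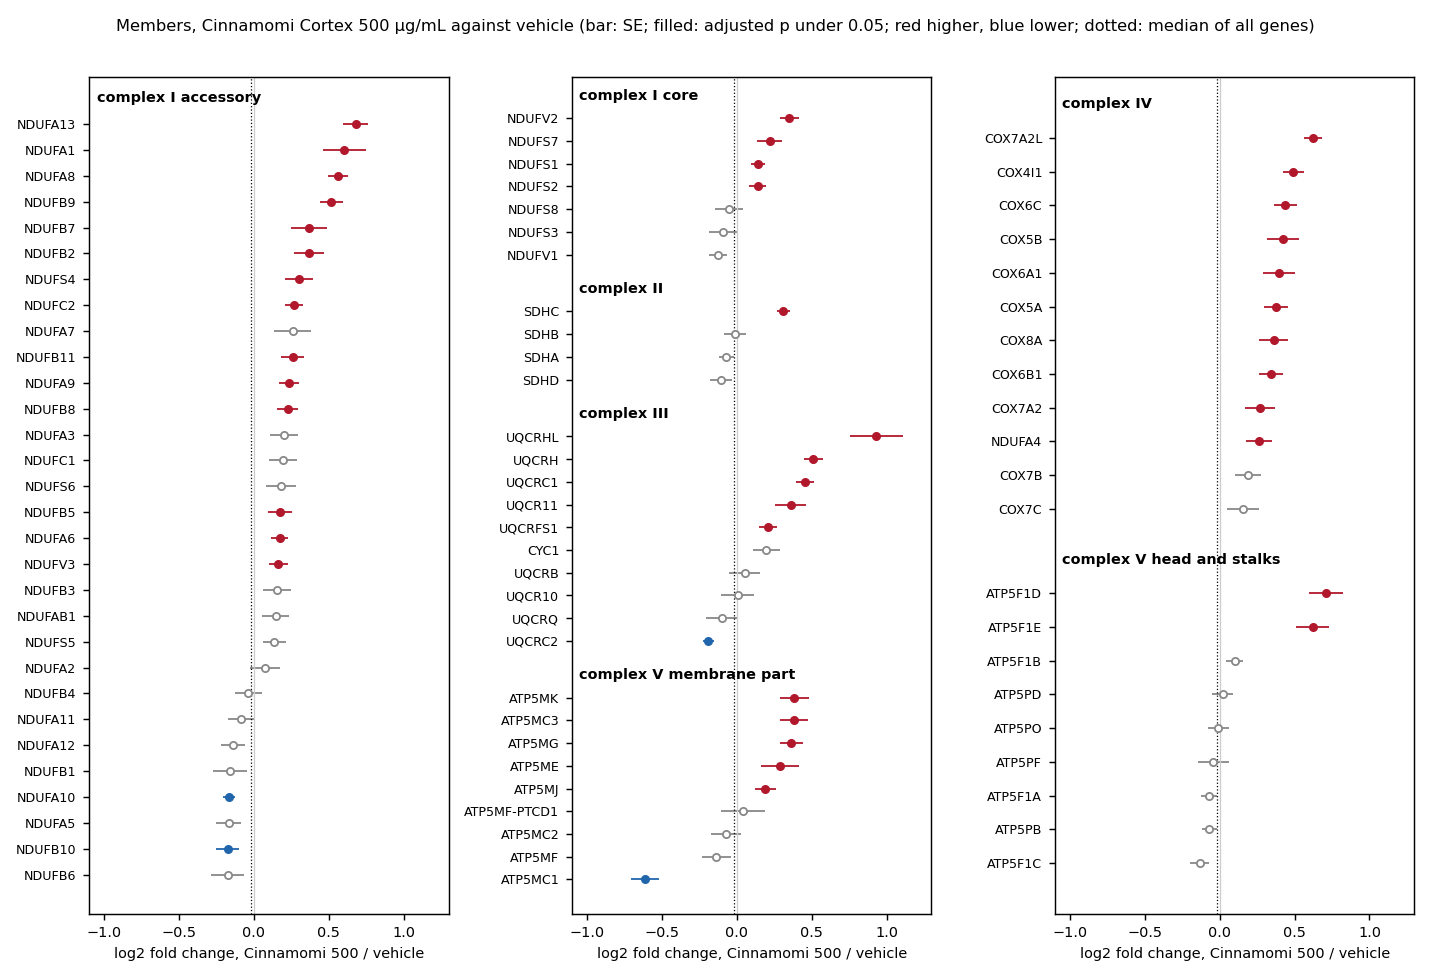
Log2 fold change (x axis) of each of the 81 tested members at 500 µg/mL Cinnamomi Cortex against vehicle, grouped by complex (y axis); bars are the SE of the edgeR fit, filled red or blue points were called higher or lower, open points were not called, and the dotted line is the median of all genes (-0.02). All 12 complex IV members lie right of that line, while the complex V head and stalks hold 2 points far to the right (ATP5F1D 0.71 and ATP5F1E 0.62) and 7 near it.

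Complex IV, cytochrome c oxidase, had the largest share of higher members: 10 of 12 were higher at 500 µg/mL Cinnamomi Cortex and 0 lower, with a median log2 fold change of 0.37. Its summed expression was 1179, 1189 and 1090 CPM in the vehicle libraries and 1432, 1475 and 1541 CPM at this dose. The groups did not overlap under TMM, but this separation depends on that scaling. TMM factors were 0.834 to 0.863 at this dose and 1.01 to 1.04 in vehicle. COX7A2L (ENSG00000115944, chr2:42333546-42425088, minus strand, GRCh38), a factor that joins complex III and complex IV in supercomplexes, had the largest difference. It measured 75.0, 73.4 and 70.0 CPM in vehicle and 109, 115 and 112 CPM after treatment. The treated libraries were all above every vehicle library (log2 fold change 0.62, SE 0.06, edgeR adjusted p = 8.4e-13). COX4I1, the common isoform of a subunit that regulates the enzyme, measured 138, 149 and 144 CPM in vehicle and 196, 199 and 211 CPM after treatment (0.49, SE 0.07, edgeR adjusted p = 3.67e-08). COX7B (0.19, adjusted p = 0.0557) and COX7C (0.16, adjusted p = 0.192) were not called by edgeR. By total counts alone, 2 complex IV members were higher and 0 lower.

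Complex I takes electrons from NADH, and its accessory subunits surround a conserved core. Of 30 accessory members 14 were higher and 2 lower (median 0.18), and of 7 core members 4 were higher and 0 lower (median 0.14), whereas by total counts alone these were 3 and 8, and 0 and 4. NDUFA13, also known as GRIM-19 (chr19:19515736-19529054, plus strand, GRCh38), measured 41.2, 51.4 and 44.4 CPM in vehicle and 66.2, 76.2 and 77.7 CPM at 500 µg/mL Cinnamomi Cortex. The groups did not overlap (log2 fold change 0.68, SE 0.08, edgeR adjusted p = 9.3e-10). NDUFA8 measured 22.1, 23.8 and 23.1 CPM in vehicle and 33.1, 33.4 and 35.4 CPM after treatment, again without overlap (0.56, SE 0.07, edgeR adjusted p = 5.7e-10). NDUFB9 rose from 82.5, 95.5 and 79.0 CPM to 120, 114 and 134 CPM (0.52, SE 0.08, edgeR adjusted p = 4.93e-08). NDUFA1, which sits in the membrane arm, measured 22.3, 30.0 and 20.1 CPM in vehicle and 32.0, 37.6 and 41.1 CPM after treatment (0.60, SE 0.14, edgeR adjusted p = 0.000271). The lowest treated library of NDUFA1 lay just above the highest vehicle library, and its call ended by total counts alone (0.32). In the core the largest difference was that of NDUFV2, an iron-sulfur subunit of the NADH-oxidising module (0.35, SE 0.06). NDUFV1, its partner that binds NADH and flavin, was at -0.12 (adjusted p = 0.0618, not called by edgeR).

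The 2 lower members of complex I were small differences. NDUFA10 measured 98.7, 106 and 102 CPM in vehicle and 93.6, 88.6 and 91.6 CPM at 500 µg/mL Cinnamomi Cortex (log2 fold change -0.17, SE 0.04, edgeR adjusted p = 0.000486). NDUFB10 measured 64.0, 74.0 and 60.5 CPM in vehicle and 55.6, 60.0 and 60.4 CPM after treatment (-0.17, SE 0.08, edgeR adjusted p = 0.0401). The NDUFB10 call ended without vehicle replicate 2 (-0.09), without Cinnamomi Cortex replicate 1 (-0.14) and without replicate 2 (-0.19).

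Complex II, succinate dehydrogenase, has 4 subunits that are all nuclear. SDHC, a membrane anchor, was higher (126 to 136 CPM in vehicle, 159 to 162 CPM at 500 µg/mL Cinnamomi Cortex; log2 fold change 0.31, SE 0.04), while the flavoprotein SDHA, the iron-sulfur subunit SDHB and the second anchor SDHD were at -0.07, -0.01 and -0.10 and not called. Of complex II 0 members were higher and 3 lower by total counts alone. Complex III had 5 higher members and 1 lower of 10 (median 0.20), against 3 and 4 by total counts alone. Its large core proteins differed in direction. UQCRC1 measured 146, 153 and 142 CPM in vehicle and 191, 199 and 215 CPM after treatment (0.46, SE 0.06, edgeR adjusted p = 6.99e-09), whereas UQCRC2 measured 287, 284 and 276 CPM in vehicle and 248, 244 and 251 CPM after treatment (-0.19, SE 0.04, edgeR adjusted p = 1.6e-05). Neither pair of groups overlapped. UQCRH, the hinge protein near cytochrome c1, was higher (0.51, SE 0.06). UQCRHL, an intronless near copy of UQCRH, measured 3.10, 5.52 and 3.80 CPM in vehicle and 6.41, 8.49 and 9.05 CPM after treatment (0.93, SE 0.18, edgeR adjusted p = 1.05e-05). Reads of this pair can be assigned to either gene, so the value of UQCRHL is uncertain.

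Complex V had the widest range of fold changes among its members. In the head and stalks, the part that turns ADP into ATP, 2 of 9 members were higher and 0 lower, against 2 and 7 by total counts alone. ATP5F1D, the delta subunit of the rotating stalk, measured 34.2, 33.6 and 32.9 CPM in vehicle and 51.8, 61.5 and 51.2 CPM at 500 µg/mL Cinnamomi Cortex (log2 fold change 0.71, SE 0.11, edgeR adjusted p = 4.44e-07). ATP5F1E, the epsilon subunit bound to it, measured 125, 168 and 126 CPM in vehicle and 208, 206 and 232 CPM after treatment (0.62, SE 0.11, edgeR adjusted p = 2.95e-06). Both genes were above every vehicle library in all 3 treated libraries. The catalytic subunits ATP5F1A and ATP5F1B were at -0.07 and 0.10 and the gamma subunit ATP5F1C was at -0.13, and none of these was called. In the membrane part 5 of 9 members were higher and 1 was lower (median 0.19), against 0 and 3 by total counts alone. The 9 include ATP5MF-PTCD1 (0.04, not called), whose locus overlaps that of ATP5MF, so reads of this pair can be assigned to either gene.

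The lower membrane member was ATP5MC1 (Ensembl ENSG00000159199, chr17:48892765-48895871, plus strand, GRCh38). ATP5MC1, ATP5MC2 and ATP5MC3 encode the same mature c subunit with different targeting peptides. ATP5MC1 measured 62.9, 66.7 and 67.9 CPM in vehicle and 41.0, 44.3 and 43.9 CPM at 500 µg/mL Cinnamomi Cortex. All treated libraries were below every vehicle library (log2 fold change -0.61, SE 0.09, edgeR adjusted p = 1.35e-07). ATP5MC2 measured 98.6, 108 and 121 CPM in vehicle and 96.4, 117 and 97.7 CPM after treatment, and was not called (-0.07, SE 0.10, adjusted p = 0.542). ATP5MC3 measured 192, 234 and 221 CPM in vehicle and 257, 304 and 282 CPM after treatment, without overlap (0.38, SE 0.09, edgeR adjusted p = 0.000411). By dose, ATP5MC1 averaged 56.8 ± 3.60 CPM at 20 µg/mL, 55.2 ± 6.12 at 100 µg/mL and 43.1 ± 1.83 at 500 µg/mL (SD, n = 3), and ATP5MC3 205 ± 3.16, 215 ± 3.90 and 281 ± 23.3. In Astragali Radix at 500 µg/mL the ATP5MC1 libraries stood at 66.0, 70.2 and 68.8 CPM. The share of the 3 genes in their sum was not tested.

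**Figure D2:**
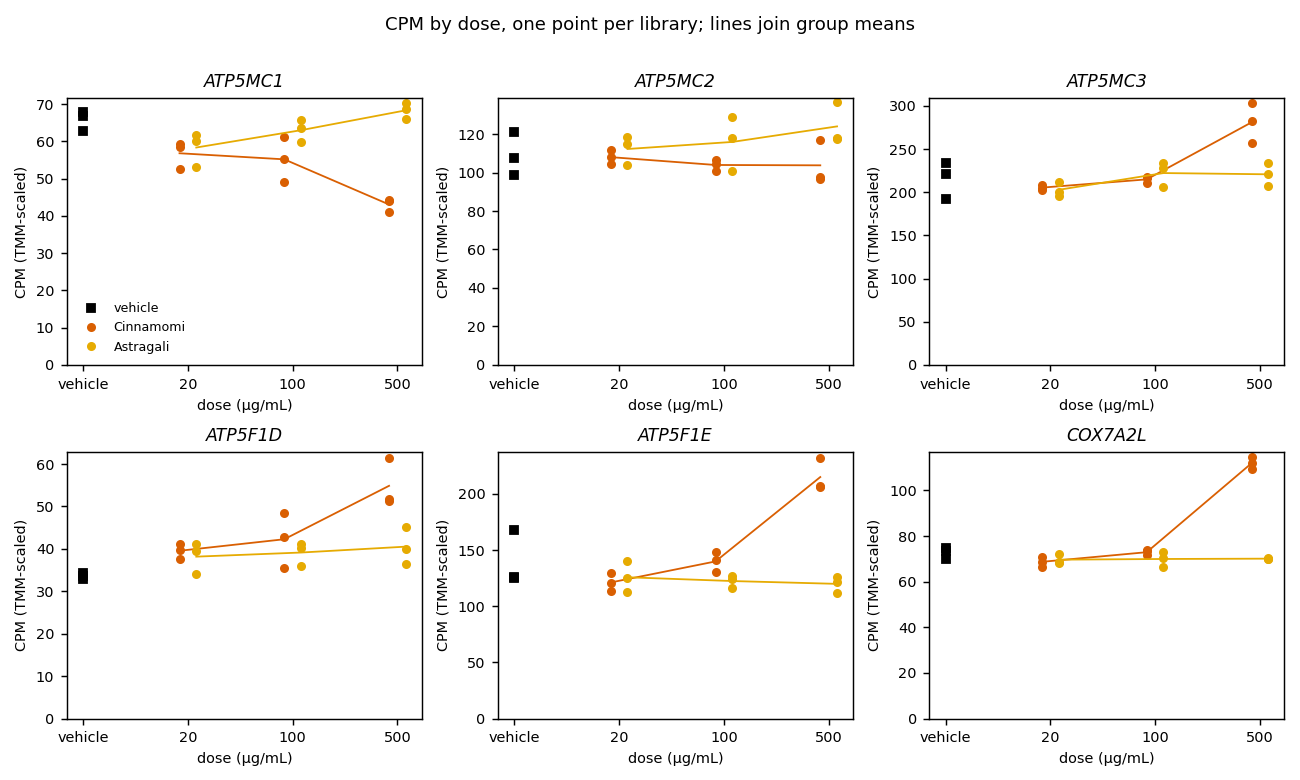
CPM (y axis, from 0) of ATP5MC1, ATP5MC2, ATP5MC3, ATP5F1D, ATP5F1E and COX7A2L in vehicle (squares) and by dose in µg/mL (x axis) for Cinnamomi Cortex and Astragali Radix; each point is a library and lines join means of 3. For COX7A2L the Cinnamomi Cortex libraries sit near 70 CPM at the lower doses and at 109 to 115 CPM at 500 µg/mL, and ATP5MC1 is the panel in which the highest dose lies lowest.

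At the lower doses of Cinnamomi Cortex the members did not show this pattern. At 100 µg/mL 4 members were higher and 4 lower than vehicle (median -0.06; of all genes 19.4% were called, 10.1% higher and 9.36% lower). At 20 µg/mL 0 were higher and 5 lower (median -0.10; of all genes 7.16% were called, 3.85% higher and 3.31% lower). At 100 µg/mL the higher members were UQCRHL (0.51), ATP5F1D (0.33), CYC1 (0.24) and NDUFA13 (0.23), and the lower ones ATP5MC1 (-0.26), ATP5F1A (-0.25), ATP5F1B (-0.19) and ATP5PB (-0.18). By total counts alone the calls of all 4 higher members ended (0.43, 0.25, 0.16 and 0.15). The counts rested on single libraries: at 100 µg/mL they were 2 members without Cinnamomi Cortex replicate 2, 5 without replicate 3, 4 without vehicle replicate 1 and 3 without vehicle replicate 3. At 20 µg/mL they were 1 without Cinnamomi Cortex replicate 3 or vehicle replicate 1 and 2 without Cinnamomi Cortex replicate 2 or vehicle replicate 2. Of the named calls at 100 µg/mL, ATP5F1A and ATP5PB held without each library in turn, and the other 6 did not. At 20 µg/mL the lower members with the largest change were UQCRQ (-0.36), COX7C (-0.35), ATP5PB (-0.20) and ATP5F1A (-0.17), of which ATP5PB held without each library, and the fifth was ATP5F1B (-0.17). UQCRQ (-0.37) and ATP5F1A (-0.18) were not called by total counts alone.

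The dose trend of Cinnamomi Cortex, fitted as the log2 change per 5-fold step from 20 to 500 µg/mL and free of the vehicle libraries, was called in 54 members: 50 rose and 4 fell (median 0.13 per step). Over all genes 61.9% were called, with 30.5% rising and 31.4% falling, around a median of -0.01. By total counts alone the median of all genes was -0.14, and 15 members rose and 20 fell. All 12 complex IV members rose (median 0.23; 5 rose and 0 fell by total counts alone), as did 18 of 30 complex I accessory members (4 rose and 7 fell by total counts alone), 6 of 10 complex III members (2 and 2), 5 of 9 in the head and stalks (1 and 3) and 5 of 9 in the membrane part of complex V (2 and 3). ATP5F1E rose most. It measured 113, 129 and 121 CPM at 20 µg/mL and 208, 206 and 232 CPM at 500 µg/mL (0.41 per step, SE 0.06, edgeR adjusted p = 7.57e-09). COX7A2L followed a similar course from 70.9, 68.6 and 66.6 CPM to 109, 115 and 112 CPM (0.35 per step, SE 0.03, edgeR adjusted p = 1.86e-14). NDUFA1 (0.37), COX6A1 (0.31), ATP5MK (0.31) and UQCRHL (0.31) completed the 6 largest rises, each without overlap between the end doses. The end doses did not overlap in 67.4% of all genes. The UQCRHL rise was not called by total counts alone (0.18). The members that fell were ATP5MC1 (-0.20), NDUFV1 (-0.08), UQCRC2 (-0.08) and NDUFA10 (-0.07). The NDUFV1 call ended without Cinnamomi Cortex replicate 2 at 500 µg/mL (-0.07) or at 20 µg/mL (-0.07).

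Astragali Radix, the root of a milkvetch, shares a set with Cinnamomi Cortex. At 500 µg/mL it differed from vehicle in 1 member, ATP5MK, a small membrane subunit of complex V (28.5 ± 2.78 CPM against 36.5 ± 6.68, SD, n = 3; -0.35, edgeR adjusted p = 0.0478), with 3.04% of all genes called and 1.48% lower. The ATP5MK groups overlapped, and the call ended without any 1 of 5 libraries: vehicle replicates 1 (-0.22) and 2 (-0.35) and Astragali Radix replicates 1 (-0.29), 2 (-0.37) and 3 (-0.42). It also ended by total counts alone (-0.37). Its dose trend was called in 0 members by edgeR and by DESeq2 (1.16% of all genes by edgeR), and 3 members had an unadjusted p under 0.05. Set against Astragali Radix at 500 µg/mL, Cinnamomi Cortex was higher in 41 members and lower in 6 (median 0.19, over all genes -0.02 with 62.7% called, 30.9% higher and 31.8% lower). By total counts alone it was higher in 11 and lower in 25, with the median of all genes at -0.28. All 12 complex IV members were higher (median 0.39), and by total counts alone 2 were higher and 0 lower. ATP5F1E (0.84), NDUFA1 (0.75), ATP5MK (0.74), UQCRHL (0.71), COX7A2L (0.67) and COX6C (0.62) led, and ATP5MC1 (-0.67), ATP5MC2 (-0.26), NDUFV1 (-0.23), NDUFB10 (-0.21), UQCRC2 (-0.18) and NDUFA10 (-0.17) were lower. Among the 12, the NDUFB10 groups alone overlapped. Of all genes 66.3% had groups that did not overlap. The comparison with vehicle, the dose trend and this pair share the 3 Cinnamomi Cortex libraries at 500 µg/mL, so their counts are not independent. The ATP5MC2 call ended without Cinnamomi Cortex replicate 1 (-0.21) or 3 (-0.22) or Astragali Radix replicate 2 (-0.18), and that of NDUFB10 without Cinnamomi Cortex replicate 1 (-0.18) or Astragali Radix replicate 2 (-0.11).

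**Figure D3:**
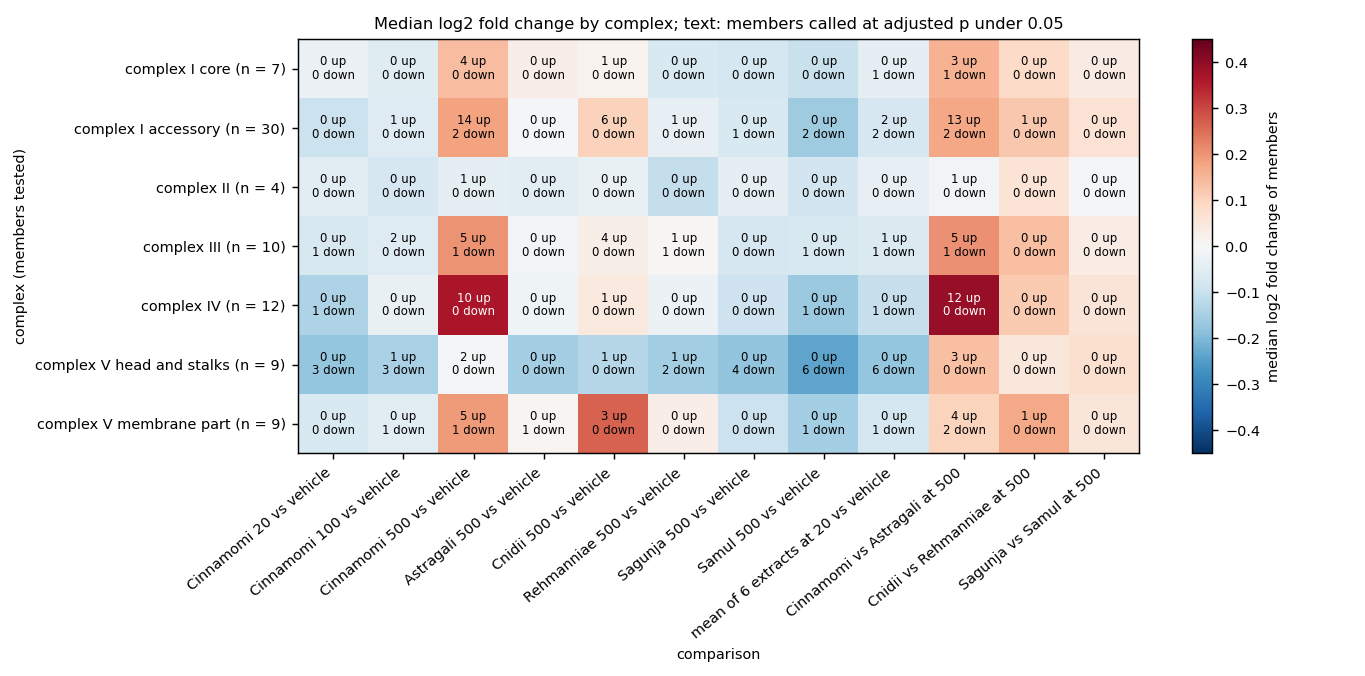
Median log2 fold change of the tested members of each complex (y axis) in 12 comparisons (x axis), as colour from blue (lower) to red (higher); the text in each field counts the members called higher and lower by edgeR. Complex IV has 10 and 12 members higher in the columns of Cinnamomi Cortex at 500 µg/mL, and the head and stalks of complex V have 6 members lower in the Samul-tang column and in that of the mean at 20 µg/mL.

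Cnidii Rhizoma, an umbellifer rhizome, was the only other extract with more members higher than lower at 500 µg/mL: 16 were higher and 0 lower than vehicle (median 0.05), while 11.8% of all genes were called, 6.11% higher and 5.67% lower. Scaling by total counts alone left 7 higher and 3 lower. UQCRHL measured 9.68, 5.75 and 9.18 CPM, above all vehicle libraries (3.10 to 5.52 CPM; 0.95, SE 0.18, edgeR adjusted p = 0.000196). NDUFB7, an accessory subunit of complex I, measured 27.1, 29.3 and 27.5 CPM against 22.0, 21.3 and 18.7 CPM in vehicle (0.44, SE 0.12, edgeR adjusted p = 0.0103). NDUFS6 (0.43) and NDUFA1 (0.42) were also called, with overlapping groups. Over all genes 26.5% did not overlap. Further calls in Cnidii Rhizoma included ATP5F1D (0.42), ATP5MG (0.39), CYC1 (0.38), NDUFA13 (0.37) and ATP5MC1 (0.31). The NDUFB7 call ended without vehicle replicate 3 (0.37), and that of NDUFA1 without vehicle replicate 1 (0.36) or 3 (0.30) or Cnidii Rhizoma replicate 1 (0.47) or 3 (0.25), or by total counts alone (0.35). The count was 8 without vehicle replicate 1, 10 without vehicle replicate 3 and 9 without Cnidii Rhizoma replicate 3. Across the 81 members the log2 fold change was weakly related to transcript length (Pearson r -0.25, Spearman rho -0.33; members share libraries and are not replicates). The median was 0.12 for the 41 shorter and 0.02 for the 40 longer members. For Cinnamomi Cortex at 500 µg/mL these coefficients were 0.02 and -0.03. The relation was not particular to Cnidii Rhizoma at this dose. Rehmanniae Radix Preparata had -0.19 and -0.25 at 500 µg/mL and -0.29 and -0.35 in its dose trend. The coefficients were -0.12 and -0.18 in the Cnidii Rhizoma trend and 0.27 and 0.25 in the Samul-tang trend.

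In the dose trend of Cnidii Rhizoma 2 members rose, ATP5MC1 (0.17 per step) and ATP5MG (0.14), with 3.22% of all genes called (1.35% rising and 1.86% falling). Neither call held: the ATP5MC1 call ended without replicate 1 (0.14) or 3 (0.14) at 500 µg/mL or replicate 2 (0.15) or 3 (0.17) at 20 µg/mL, and that of ATP5MG without any 1 of 5 libraries (0.10 to 0.15). Both calls ended by total counts alone (0.14 and 0.12). The count was 0 without any of the same 4 libraries, 1 without replicate 1 at 20 µg/mL and 7 without replicate 2 at 500 µg/mL. Rehmanniae Radix Preparata, a steamed root, shared the set. At 500 µg/mL 3 members were higher than vehicle and 3 lower (median -0.04; of all genes 7.45% were called, 3.87% higher and 3.58% lower). CYC1, cytochrome c1 of complex III, measured 142, 130 and 125 CPM against 99.8, 95.1 and 99.7 CPM in vehicle, without overlap (0.43, SE 0.09, edgeR adjusted p = 0.00148). NDUFB7 (0.40) and ATP5F1D (0.37) were higher, and UQCRQ, a small complex III subunit (-0.38), ATP5F1A (-0.22) and ATP5F1B (-0.20) were lower, all without overlap. Over all genes 27.3% did not overlap. CYC1 and ATP5F1A were called without each library in turn, and the other 4 lost their call without at least 1. NDUFB7 (0.36) and ATP5F1D (0.32) were not called by total counts alone. The count was 3 without vehicle replicate 1 or without Rehmanniae Radix Preparata replicate 1 or 2. Its dose trend was called in 1 member, NDUFB4 (0.18 per step, 0.674% of all genes called), and in 0 without replicate 1 at 500 µg/mL or replicate 2 or 3 at 20 µg/mL, or by total counts alone.

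Set against each other at 500 µg/mL, Cnidii Rhizoma was higher than Rehmanniae Radix Preparata in 2 members, NDUFA1 and ATP5MG, and lower in 0, with 0.705% of all genes called (median 0.11, over all genes -0.00). ATP5MG, the g subunit of complex V, measured 169, 127 and 174 CPM with Cnidii Rhizoma and 116, 126 and 109 CPM with Rehmanniae Radix Preparata (0.42, SE 0.08, edgeR adjusted p = 0.0018). NDUFA1 measured 30.1, 27.7 and 40.3 CPM against 16.1, 20.4 and 26.3 CPM (0.62, SE 0.15, edgeR adjusted p = 0.0232). In both genes replicate 2 of Cnidii Rhizoma lay close to the other group. Without that library 10 members were called, without replicate 3 of Cnidii Rhizoma 0, and without replicate 1 or 2 of Rehmanniae Radix Preparata 1. The NDUFA1 call also ended by total counts alone (0.59). Summed complex V membrane expression was likewise 1074 and 1103 CPM in replicates 1 and 3 of Cnidii Rhizoma and 892 CPM in replicate 2.

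Samul-tang, a formula of 4 herbs, was lower than vehicle in 11 members and higher in 0 at 500 µg/mL (median -0.15), with 13.7% of all genes called, 7.44% higher and 6.24% lower. Of the 9 members of the complex V head and stalks 6 were lower: ATP5F1A (-0.26), ATP5F1B (-0.26), ATP5F1C (-0.26), ATP5F1E (-0.34), ATP5PD (-0.24) and ATP5PO (-0.23). ATP5F1A, the alpha subunit, measured 420, 425 and 420 CPM in vehicle and 342, 352 and 362 CPM with Samul-tang, without overlap (SE 0.05, edgeR adjusted p = 0.00049). ATP5MK (-0.40), UQCRQ (-0.36) and NDUFA3 (-0.33) were lower without overlap as well. Over all genes 29.4% did not overlap. The calls of ATP5MK, UQCRQ, ATP5F1E and NDUFA3 all ended without Samul-tang replicate 3 (-0.32, -0.31, -0.27 and -0.21). That of ATP5MK also ended without vehicle replicate 1 (-0.27), those of ATP5F1E (-0.19), NDUFA3 (-0.29) and UQCRQ (-0.34) without vehicle replicate 2, that of UQCRQ without vehicle replicate 1 (-0.34), and that of ATP5F1E without Samul-tang replicate 1 (-0.35) and by total counts alone (-0.34), which left 6 members lower, 3 of them in the head and stalks. The count was 3 without Samul-tang replicate 3 and 25 without replicate 2, and 7, 5 and 17 without vehicle replicates 1, 2 and 3. Summed over all members the Samul-tang libraries held 6371, 6772 and 5940 CPM beside 7029, 7285 and 6769 CPM in vehicle, so the groups overlapped by the library of replicate 2.

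Sagunja-tang, a formula of 4 other herbs, was lower than vehicle in 5 members and higher in 0 at 500 µg/mL (median -0.08; of all genes 12.3% were called, 6.76% higher and 5.52% lower). These were ATP5F1A (-0.23), ATP5PO (-0.22), ATP5F1C (-0.19) and ATP5F1B (-0.18) of the head and stalks and NDUFB5 (-0.30) of complex I. NDUFB5 measured 46.1, 46.9 and 42.8 CPM in vehicle and 35.2, 36.9 and 38.3 CPM with Sagunja-tang, without overlap (SE 0.08, edgeR adjusted p = 0.00782). Over all genes 27.5% did not overlap. The calls of ATP5PO and ATP5F1C ended without vehicle replicate 1 (-0.15 and -0.17) or Sagunja-tang replicate 1 (-0.13 and -0.15) or 3 (-0.21 and -0.18), and that of ATP5F1C also without vehicle replicate 2 (-0.21). ATP5PO was not called by total counts alone (-0.24), a scaling that left 3 members lower. The count was 2 or 3 without vehicle replicates 1 or 2 or Sagunja-tang replicates 1 or 3, and 10 without Sagunja-tang replicate 2; without Sagunja-tang replicate 1, 1 of the 3 was higher. The formulas did not differ from each other at this dose in any member by edgeR or by DESeq2 (0 called, median 0.06, 0.885% of all genes called). The dose trend was called in 1 member for Sagunja-tang (ATP5PB, 0.09 per step; 4.99% of all genes, 2.7% rising and 2.29% falling) and in 3 for Samul-tang (NDUFB5 0.13, NDUFS1 0.08 and NDUFA11 -0.16; 9.88% of all genes, 4.48% rising and 5.4% falling). Each of these 4 calls ended without at least 1 library: ATP5PB without replicate 2 at 500 µg/mL (0.07) or replicate 2 or 3 at 20 µg/mL (0.08 each), and all 3 of Samul-tang without replicate 2 at 20 µg/mL (0.05, 0.06 and -0.09) or replicate 3 at 500 µg/mL (0.14, 0.06 and -0.12). The calls of ATP5PB (0.08) and NDUFS1 (0.09) ended by total counts alone too. The Samul-tang count was 0 without replicate 2 at 20 µg/mL or replicate 3 at 500 µg/mL, 6 without replicate 2 at 500 µg/mL, and 9 or 10 without replicate 1 or 3 at 20 µg/mL, and in these last 3 more members fell than rose.

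Only at 500 µg/mL Cinnamomi Cortex did the TMM-scaled sum of the complex V head and stalks average above vehicle. In every other extract and dose with 3 libraries the head and stalks summed to less than vehicle on average. Their summed expression was 1664, 1685 and 1624 CPM in vehicle, and 1355 to 1591 CPM in the 18 libraries at 20 µg/mL, all of them below vehicle. Against the mean of the 6 extracts at 20 µg/mL, 3 members were higher than vehicle and 12 lower (median -0.08), while 16.9% of all genes were called, 8.38% higher and 8.57% lower. Of the 12, 6 belong to the head and stalks: ATP5F1A (-0.21), ATP5F1C (-0.21), ATP5F1B (-0.19), ATP5PB (-0.17), ATP5PO (-0.17) and ATP5PD (-0.15). The member farthest below vehicle was UQCRQ, with 66.4, 66.3 and 60.1 CPM in vehicle and 49.2 ± 4.14 CPM (SD, n = 18) over the extracts, without overlap (-0.39, SE 0.08, edgeR adjusted p = 0.000359). Over all genes 4.88% did not overlap. COX7C (-0.30), ATP5MK (-0.31) and NDUFC1 (-0.22) were lower, and NDUFB7 (0.26), CYC1 (0.20) and NDUFA13 (0.19) higher. Without vehicle replicate 1 the count was 5 members, 0 of them higher, and among the calls that ended were ATP5MK (-0.18), COX7C (-0.27) and NDUFC1 (-0.23). The calls of NDUFB7, CYC1 and NDUFA13 ended without vehicle replicate 1 or 3 and by total counts alone (0.24, 0.18 and 0.17). As all extracts are set against the same 3 vehicle libraries, these counts are not independent of those at 500 µg/mL. In Cinnamomi Cortex at 500 µg/mL the head and stalks summed to 1699, 1743 and 1827 CPM, above vehicle under TMM. TMM factors were 0.834 to 0.863 in these libraries and 1.01 to 1.04 in vehicle, so this direction depends on scaling. By total counts alone the lower members at this dose included ATP5F1A (-0.35) and ATP5F1B (-0.18), and the higher ones were ATP5F1D (0.43) and ATP5F1E (0.34).

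**Figure D4:**
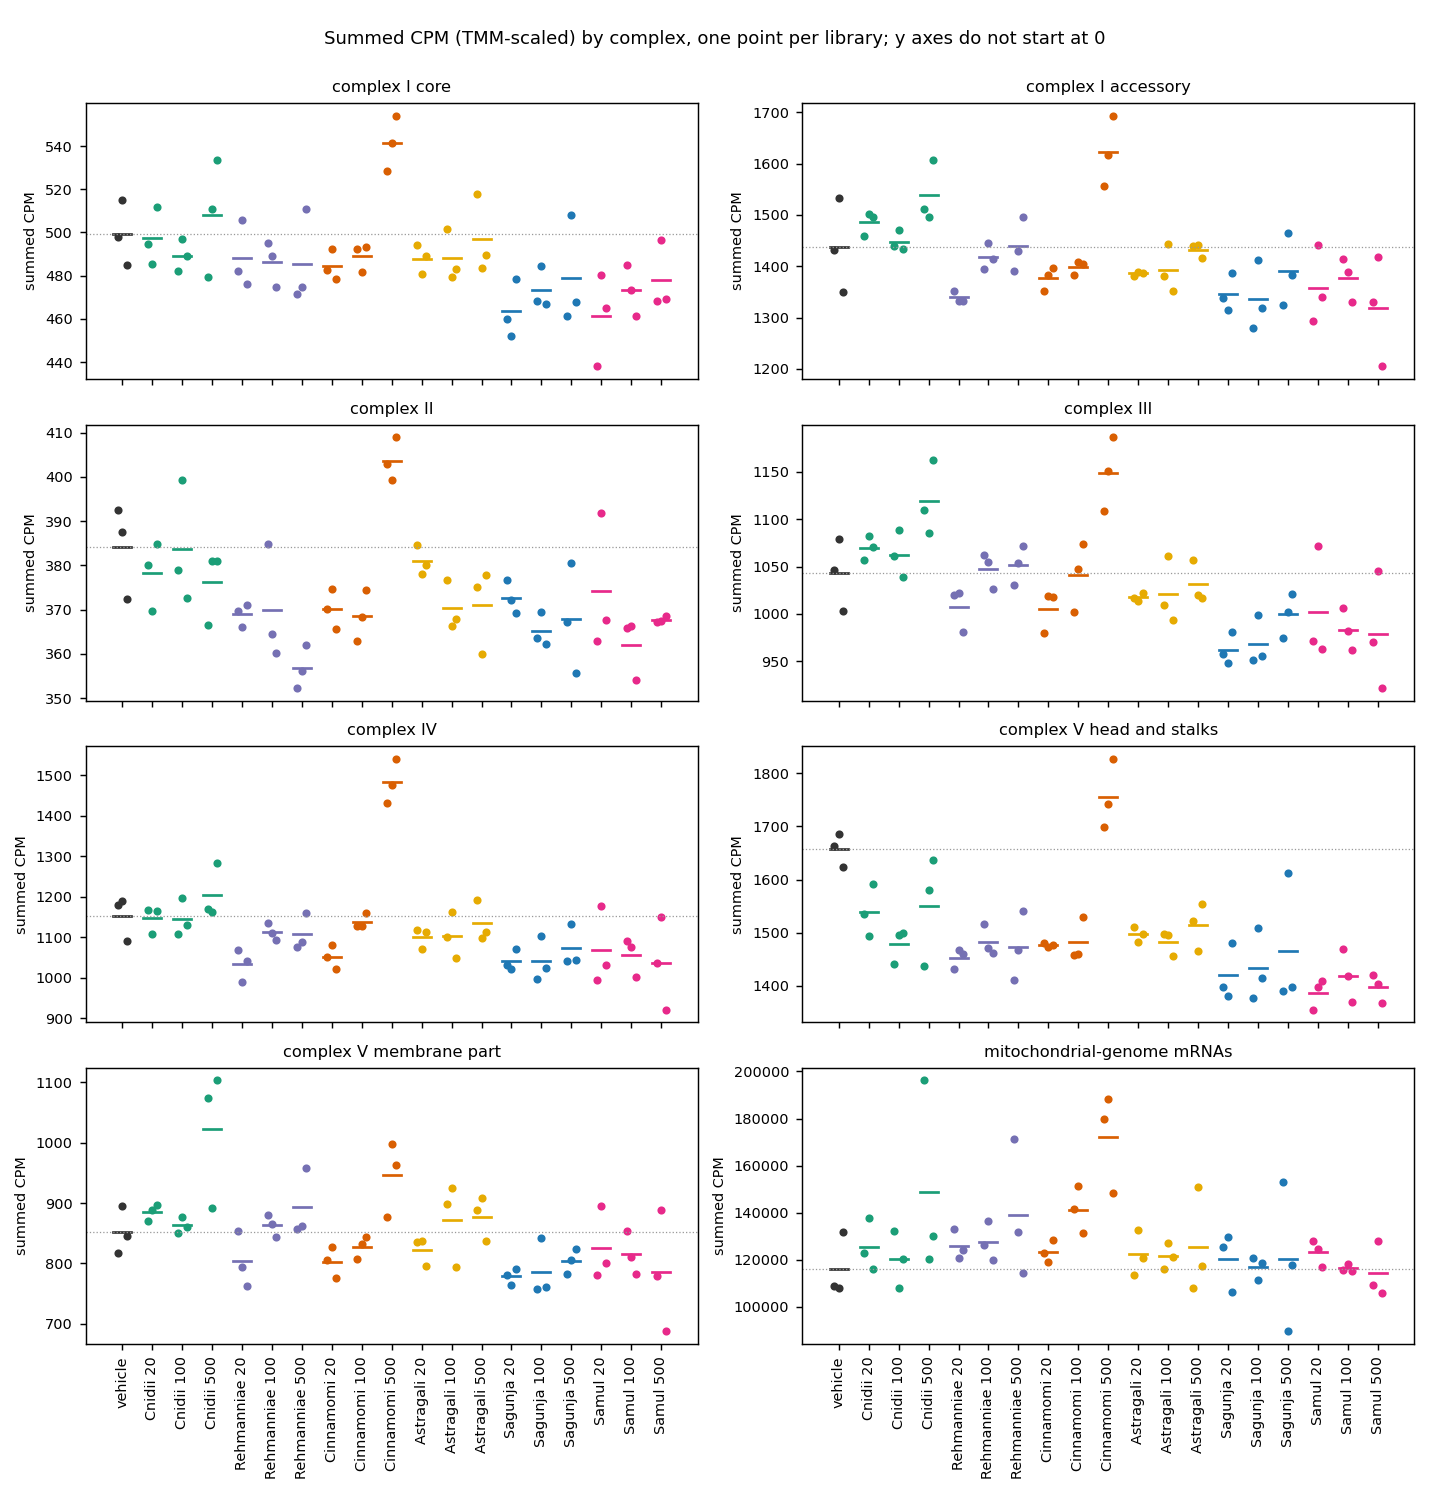
Summed CPM (y axes, which do not start at 0) of the members of each complex, and of the 13 mRNAs of the mitochondrial genome, in vehicle and in 6 extracts at 20, 100 and 500 µg/mL (x axis); points are libraries, bars means of 3, and the dotted line is the vehicle mean. Under TMM, Cinnamomi Cortex at 500 µg/mL lies above vehicle on average in all 8 panels. In the head and stalks panel every library at 20 µg/mL lies below the vehicle libraries.

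Palmul-tang, which joins the herbs of Sagunja-tang and Samul-tang, had 1 library per dose, so its values have no replicate check and were not tested. On the log2(CPM + 0.5) scale its members had a median of -0.08, -0.18 and -0.16 at 500, 100 and 20 µg/mL against the vehicle mean. Past 1.2-fold, 3 members were higher and 6 lower at 500 µg/mL (8.76% and 9.01% of all genes), 1 and 26 at 100 µg/mL (9.64% and 10.4%), and 1 and 16 at 20 µg/mL (8.47% and 8.45%). ATP5F1A measured 361, 325 and 353 CPM and ATP5F1B 483, 456 and 470 CPM at the 3 doses, below every vehicle library (420 to 425 and 562 to 568 CPM). The higher members were ATP5F1D, CYC1 and NDUFB7 at 500 µg/mL (0.34, 0.31 and 0.34), CYC1 at 100 µg/mL (0.39) and ATP5F1D at 20 µg/mL (0.36). Without vehicle replicate 2 or 3 the number past 1.2-fold at 500 µg/mL was 14 or 15.

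Other genes of the pathway, listed by function, were read beside the members at 500 µg/mL Cinnamomi Cortex, where 31.1% of all genes were higher and 31.6% lower. Of the 13 mRNAs of the mitochondrial genome 10 were higher and 0 lower (median 0.59; 7 and 0 by total counts alone). MT-CO2, a catalytic complex IV subunit, averaged 10338 ± 878 CPM in vehicle and 17377 ± 2368 CPM after treatment (SD, n = 3; 0.75, edgeR adjusted p = 1.78e-05). The share of counts from the mitochondrial genome was 14.4% to 16.7% in the vehicle libraries and 19.4% to 22.3% in the treated ones. Leaving these genes out of TMM gave 43 members higher and 4 lower. TMM already corrects for library composition, so this count cannot show their part in the scaling. Total counts without these genes were not tested. Of 48 assembly factors 12 were higher and 14 lower (median -0.03). The counts were 5 and 5 of 14 genes of cytochrome c and coenzyme Q (median -0.03), 5 and 3 of 14 genes of the tricarboxylic acid cycle (median -0.04) and 22 and 14 of 78 mitochondrial ribosomal proteins (median 0.05). Under total counts alone these 4 lists had 2 and 31, 2 and 10, 1 and 9, and 3 and 48 members higher and lower. CYCS, cytochrome c itself, was higher (0.53, SE 0.08), while FH, the fumarase that follows complex II, was lower (-0.56, SE 0.06).

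Among 12 regulators 3 were higher and 6 lower (2 and 9 under total counts alone). The coactivator PPARGC1A (0.78, SE 0.08) and its partner ESRRA (0.75, SE 0.10) were higher, while the mitochondrial transcription factor TFAM (-0.51, SE 0.07) and the coactivator PPRC1 (-0.43, SE 0.06) were lower. Of the factors tied to the motifs searched above, named here after their values were seen, NRF1 (-0.60, SE 0.10) and the GABP subunits GABPA (-0.20, SE 0.08) and GABPB1 (-0.13, SE 0.06) were lower, and YY1 was not called (-0.08, SE 0.05, edgeR adjusted p = 0.175). Of 7 tested hypoxia-linked paralogs and regulators 6 were higher and 1 lower (median 1.51). NDUFA4L2, a paralog of the complex IV member NDUFA4 known as a target of hypoxia-inducible factor, measured 0.191, 0.232 and 0.109 CPM in vehicle and 2.68, 3.58 and 3.29 CPM after treatment (4.12, SE 0.32, edgeR adjusted p = 7.97e-16). PDK1, a kinase that limits pyruvate entry into the cycle (1.56, SE 0.11), and BNIP3, a mitophagy receptor (1.51, SE 0.07), were higher. The lower gene, named after its value was seen, was ATP5IF1, the inhibitor of ATP synthase (-0.26, SE 0.07). Whether the change of these genes bears on that of the members was not tested.

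Hepatocyte markers were abundant in every group. The sum of 8 genes was 56266 to 58252 CPM in vehicle and 66057 to 66440 CPM at 500 µg/mL Cinnamomi Cortex. Of these 8 genes 4 were higher and 2 lower at that dose. The sums are TMM-scaled, and the direction of their difference depends on scaling. TMM factors were 0.834 to 0.863 at that dose and 1.01 to 1.04 in vehicle. Of 10 markers of other cell types 4 (PTPRC, COL1A2, KRT7 and DES) did not pass the filter on low counts. The sum of all 10 was 167 to 170 CPM in vehicle and 283 to 303 CPM at 500 µg/mL Cinnamomi Cortex. It was carried by CD68, a lysosomal protein used as a macrophage marker (58.3 to 142 CPM, log2 fold change 1.28), and KRT19 (42.6 to 96.9 CPM, 1.19), while ACTA2 (-0.24) and COL1A1 (-1.91) were lower. Their part in the members' differences was not tested.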

How the data were processed

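The authors deposited one table of expected counts (estimated reads per Ensembl gene, not scaled), of which 8.58% of values were not whole. Per the submitters' processing notes RSEM 1.3.3, STAR 2.7.3a, Trim Galore 0.6.5 and FastQC 0.11.9 were used with hg38/GRCh38, and the annotation release is not given in the sources used here. Per the labels' protocols the library kit was directional. Of 270 columns, 60 were matched to labelled samples and 210 columns were not used. Gene types and positions came from GENCODE 29, in which 57055 of 60675 IDs were found.

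Counts were rounded and fitted over 57 libraries in 19 groups with edgeR 4.0.16 in R 4.3.3 (TMM factors 0.834 to 1.05, quasi-likelihood test, two-sided, Benjamini-Hochberg over 16167 genes kept by filterByExpr, adjusted p under 0.05). Pooling all groups gives one estimate of spread. The median total was 25.5 M counts. A trend is the difference between 500 and 20 µg/mL divided by its steps. Palmul-tang used log2(CPM + 0.5) with no test. The fit was tested on simulated counts in which few genes were changed, equally in both directions. That setting does not bear on the scaling at 500 µg/mL Cinnamomi Cortex, where most genes were called. Of the pairs of groups compared, Samul-tang at 500 and 20 µg/mL alone had every same-number correlation of deviations over 0.1 (0.108, 0.275 and 0.119). The highest correlations with another number were 0.107, -0.164 and 0.069. Such a pairing is read from the data and not stated in the labels. Alternatives were DESeq2 1.42.0, RLE and no scaling factors, TMM without the mitochondrial genome, no filter, only the compared groups, a replicate block and each library left out.

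Members and lists were chosen with earlier results of these data known. Members named with values were those called with the largest absolute log2 fold change in each direction (8 for Cinnamomi Cortex at 500 µg/mL, 6 for its trend and its pair with Astragali Radix, 4 elsewhere), or those described with their complex. Up to 4 genes of each other list were named by adjusted p. The same rule by size chose the promoters shown.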

Additional observations from a re-analysis of the deposited data

Results flagged for a closer look

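The dose trend differed between Cinnamomi Cortex and Astragali Radix, which share a set, in 41 of the 81 tested members by a test of the difference itself (edgeR's quasi-likelihood test, adjusted p under 0.05), a comparison added after the data had been seen. In 38 the trend was higher with Cinnamomi Cortex and in 3 lower, with a median difference of 0.11 per 5-fold step. Over all genes 50.9% were called, 25% higher and 25.9% lower. The share of members called was 50.6%, near that of all genes, so the number called does not set the members apart. By total counts alone 21 members were called, 7 higher and 14 lower. All 12 complex IV members were among those higher (median 0.21). ATP5F1E (0.45), UQCRHL (0.37), NDUFA1 (0.37), ATP5MK (0.36), COX7A2L (0.35) and COX6C (0.33) differed most, and ATP5MC1 (-0.31), NDUFA10 (-0.12) and UQCRC2 (-0.09) were the lower ones. By total counts alone the calls of UQCRHL (0.24) and NDUFA1 (0.24) ended, and without Astragali Radix replicate 3 at 500 µg/mL so did that of UQCRHL (0.31). The difference of trends uses the same Cinnamomi Cortex libraries at 500 µg/mL as the comparisons above and is not independent of them.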

How the results depend on the processing

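For the named genes, mostly those with the largest changes, 1941 values were computed under the alternatives over 122 pairs of gene and comparison. Of these 0 changed direction and 196 lost their call, in 47 pairs. Among all 45 members called at 500 µg/mL Cinnamomi Cortex, 14 changed sign by total counts alone. Dividing by total counts alone changed the balance of members at 500 µg/mL Cinnamomi Cortex to 39 called (10 higher, 29 lower), in its trend to 35 (15 and 20), against Astragali Radix to 36 (11 and 25) and in the difference of the trends to 21 (7 and 14). By the construction of this scaling the median of all genes moves. It also gave 0 for Astragali Radix at 500 µg/mL, 2 for Cinnamomi Cortex at 20 µg/mL, 10 for Cnidii Rhizoma at 500 µg/mL, 0 for its trend, 1 for its pair with Rehmanniae Radix Preparata, 0 for the latter's trend, 3 and 0 for Sagunja-tang at 500 µg/mL and its trend, 6 for Samul-tang at 500 µg/mL and 24 past 1.2-fold for Palmul-tang at 20 µg/mL.

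With no filter on low counts, the count was 5 for Astragali Radix at 500 µg/mL and 1 for its trend, 19 for Cinnamomi Cortex at 20 µg/mL, 9 for the Cnidii Rhizoma trend, 11 for its pair with Rehmanniae Radix Preparata, 18 and 7 for the latter at 500 µg/mL and its trend, 14 and 0 for Sagunja-tang, 3 for the pair of formulas, 30 for Samul-tang at 500 µg/mL, 11 for its trend (2 rising, 9 falling) and 29 for the mean at 20 µg/mL. Fitted on the groups of each comparison alone, it was 0 for Astragali Radix at 500 µg/mL, 13 and 10 for Cinnamomi Cortex at 100 and 20 µg/mL, 7 and 0 for Cnidii Rhizoma at 500 µg/mL and its trend, 0 for its pair, 2 for the Rehmanniae Radix Preparata trend, 3 for Sagunja-tang at 500 µg/mL and 0 for the Samul-tang trend. DESeq2 gave 5 for Cnidii Rhizoma against Rehmanniae Radix Preparata. Without the replicate 1 libraries of the Cinnamomi Cortex set, Astragali Radix at 500 µg/mL had 1 member called, and it was higher. The cause of these differences was not tested.

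Leaving out 1 library at a time gave, at 500 µg/mL, 39 to 48 members called for Cinnamomi Cortex, 0 to 1 for Astragali Radix, 8 to 21 for Cnidii Rhizoma, 3 to 7 for Rehmanniae Radix Preparata, 2 to 10 for Sagunja-tang and 3 to 25 for Samul-tang. For the trends it gave 48 to 54, 0 to 0, 0 to 7, 0 to 1, 0 to 1 and 0 to 10, in the same order, where the Samul-tang counts with more members falling were 6, 9 and 10. It gave 2 to 6 and 1 to 6 for Cinnamomi Cortex at 100 and 20 µg/mL, 5 to 19 for the mean at 20 µg/mL, 44 to 49 for Cinnamomi Cortex against Astragali Radix, 35 to 42 for the difference of their trends, 0 to 10 for the pair in the Cnidii Rhizoma set and 0 to 0 for the formulas. Palmul-tang had 10 to 15, 24 to 31 and 14 to 25 members past 1.2-fold at 500, 100 and 20 µg/mL.

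Deviations of same-numbered libraries correlated at 0.063, 0.037 and -0.021 between Cinnamomi Cortex at 500 µg/mL and vehicle, whose replicates share only a number. With a replicate block 48 members (44 higher, 4 lower) were called there, 55 in its trend, 49 against Astragali Radix, 18 for Cnidii Rhizoma and 13 for Samul-tang at 500 µg/mL. Between the end doses of Samul-tang, same-numbered libraries correlated at 0.108, 0.275 and 0.119, beside at most 0.107, -0.164 and 0.069 with another number. In the Samul-tang trend the replicate block gave 3 members (2 rising, 1 falling). NDUFB5 (0.13), NDUFS1 (0.08) and NDUFA11 (-0.16) were all called. No named call ended under the block.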

Other observations

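Among genes that insert and assemble the complexes, 12 of 48 were higher and 14 lower at 500 µg/mL Cinnamomi Cortex (25.0% and 29.2%), beside 31.1% and 31.6% of all genes. FOXRED1 (-0.72) and ACAD9 (-0.51), assembly factors of complex I, and BCS1L (-0.52), which inserts the iron-sulfur subunit of complex III, were lower by edgeR. The higher factor with the smallest adjusted p, named after its value was seen, was SCO2, a copper chaperone of complex IV (0.73). Among genes of coenzyme Q, COQ10B (0.78) was higher and COQ3 (-1.06), a methyltransferase of its synthesis, lower. In the tricarboxylic acid cycle SUCLG1 (-0.43) and CS, citrate synthase (-0.39), were lower. Of the mitochondrial ribosomal proteins MRPS6 was higher (0.68) and MRPS25 lower (-0.88).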
